A study of Mus musculus with 8 samples.

Results

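Amino acid transporters are the carriers that move amino acids and related small molecules across the plasma membrane and the lysosomal membrane. Here 60 such genes of 7 solute carrier (SLC) families were described across 3 groups of mouse colonic tumors, out of 19938 genes measured with a single gene symbol. The members were taken by name: every gene whose symbol was Slc1a, Slc3a, Slc6a, Slc7a, Slc36a, Slc38a or Slc43a followed by a number. This gave 7 genes of the SLC1 family, 2 of SLC3, 18 of SLC6, 15 of SLC7, 4 of SLC36, 11 of SLC38 and 3 of SLC43. Symbols with a further letter, such as Slc6a20a and Slc6a20b, fell outside this rule and are given with the other carriers. Of the 60 members, Slc38a1 and Slc38a9 had 2 probe sets each, and the probe set with the higher mean over all arrays was used.

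RNA from 8 tumor samples was hybridised to Affymetrix mouse gene arrays, with 1 array per sample. The K-rasG12D AOM group held 3 tumors of the distal colon, induced by azoxymethane (AOM, a colon carcinogen), with the genotype K-rasG12Dint. G12D is an activating change of K-ras, and the labels do not explain the suffix. The LSL AOM group held 2 AOM tumors of the distal colon with the genotype LSL-K-rasG12D/+, an allele behind a lox-stop-lox cassette that keeps it silent until a recombinase removes it, and the titles of these samples call them wt. The serrated group held 3 serrated tumors of the proximal colon with the genotype K-rasG12Dint/Ink4a/Arf-/-. Its labels name no AOM. All 3 groups carried a K-rasG12D allele by their genotype labels, and no normal colon was among the samples. As labelled, serrated and AOM tumors differed at once in histology, carcinogen, segment of the colon and Ink4a/Arf status, and the parts of these cannot be told apart. The labels name no recombinase driver, strain, age or sex, and do not say whether the tumors of a group came from separate animals. The p-values therefore measure the spread between these samples, which may be technical in part.

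Each level is a log2 value on the scale of robust multi-array average (RMA), on which 1 unit is a 2-fold change. Probe sets differ in how they bind, so levels of different genes do not rank their transcripts, and differences are taken only within a gene. Where a gene is called dim or bright, this places its signal against the median gene of the same array and says nothing of its abundance. The arrays had similar medians over genes, from 4.17 to 4.31, but serrated replicate 1 had the narrowest spread over genes (SD 1.768, against 2.004 to 2.13 on the other 7 arrays). The 8 marker genes of the intestinal epithelium had a mean level of 8.51 to 8.68 on the AOM arrays and 9.51 to 9.54 on the serrated arrays. Cdkn2a, the gene of the Ink4a/Arf locus, measured 5.39, 6.21 and 5.95 in K-rasG12D AOM, 3.59 and 4.28 in LSL AOM, and 4.01, 3.79 and 3.37 in serrated tumors. Its serrated levels lay below all 3 K-rasG12D AOM levels and overlapped those of the LSL AOM tumors. The labels do not say whether its probes lie inside the deleted stretch.

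The families work in different ways. The 2 SLC3 proteins are heavy chains that bring SLC7 light chains to the membrane, and the pairs exchange 1 amino acid for another. SLC1 and SLC6 carriers use the sodium gradient, SLC36 carriers are driven by protons, SLC38 carriers take up or release glutamine and other neutral amino acids with sodium, and SLC43 carriers let large neutral amino acids pass down their gradient. In the gut, uptake from the lumen is a task of mature absorptive cells, above all in the small intestine, while dividing cells depend on the carriers that supply glutamine, leucine and cystine from the blood side. The latter group is among the targets of the Myc and ATF4 transcription factors.

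The start regions of both genes that passed the test as higher in serrated tumors, Slc3a1 and Slc6a14, are shown because the text returns to their values and to transcription factors of the gut epithelium. Each sequence runs from 250 bases before to 50 bases after the RefSeq start on the GRCm38.p6 build. The Slc3a1 window is chr17:85028097-85028396 and the Slc6a14 window chrX:21714650-21714949, both on the plus strand. Capitals mark letters of an HNF4 element (CAAAGTCCA) and of an HNF1 half-site (GTTAAT, here as its reverse complement), found on either strand.
Slc3a1: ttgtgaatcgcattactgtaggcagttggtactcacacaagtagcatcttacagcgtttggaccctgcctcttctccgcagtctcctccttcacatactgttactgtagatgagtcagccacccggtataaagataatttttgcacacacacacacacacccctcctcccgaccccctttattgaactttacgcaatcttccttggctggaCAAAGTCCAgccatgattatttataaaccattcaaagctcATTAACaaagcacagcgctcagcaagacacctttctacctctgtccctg
Slc6a14: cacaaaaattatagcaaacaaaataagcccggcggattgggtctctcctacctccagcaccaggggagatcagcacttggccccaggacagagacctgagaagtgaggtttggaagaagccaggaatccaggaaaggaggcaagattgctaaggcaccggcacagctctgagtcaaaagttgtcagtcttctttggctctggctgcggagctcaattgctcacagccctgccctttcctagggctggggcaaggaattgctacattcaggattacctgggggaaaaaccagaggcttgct
Of the 60 members, 43 had such windows, 64 in all. The HNF4 element was in 1 of these 64 windows (1.56%), that of Slc3a1, and in 0.475% of all 32851 windows of the table. The HNF1 half-site was in 6 of the 64 windows (9.38%) and in 7.1% of all. The Slc6a14 window held none of the 4 motifs searched. The other motifs were TGATGNAA, a composite element of C/EBP and ATF factors such as ATF4, in 5 member windows (7.81%, against 3.97% of all), and CTTTGAT, an element of the TCF/LEF factors of Wnt signalling, in 5 (7.81%, against 3.73%). The 4 motifs were searched on both strands, and none contains another. A match describes the letters alone and says nothing of binding.

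Few of the transporters differed between serrated and AOM tumors past the test used here, a limma fit of the 3 group means with p-values adjusted over all 19938 genes and a threshold of 0.05. Against the mean of both AOM groups, Slc3a1 and Slc6a14 were higher in serrated tumors, and Slc38a1, Slc38a4 and Slc7a5 were lower. The 2 higher genes were 3.33% of the 60 members, while 3.62% of all genes were called higher. The 3 lower genes were 5.0% of the members, while 5.76% of all genes were called lower. Both shares lay near those of all genes, so the number of calls is not a result about the transporters as a set. The median difference over the members was 0.04, the same as over all genes, with 31 members above 0 and 29 below. All arrays of the serrated group lay above all 5 AOM arrays for 5 members (8.33%, against 7.24% of all genes): Slc3a1, Slc7a9, Slc6a14, Slc6a15 and Slc6a19. They lay below all 5 for 3 members (5.0%, against 8.93% of all genes): Slc7a5, Slc38a1 and Slc38a4.

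**Figure D1:**
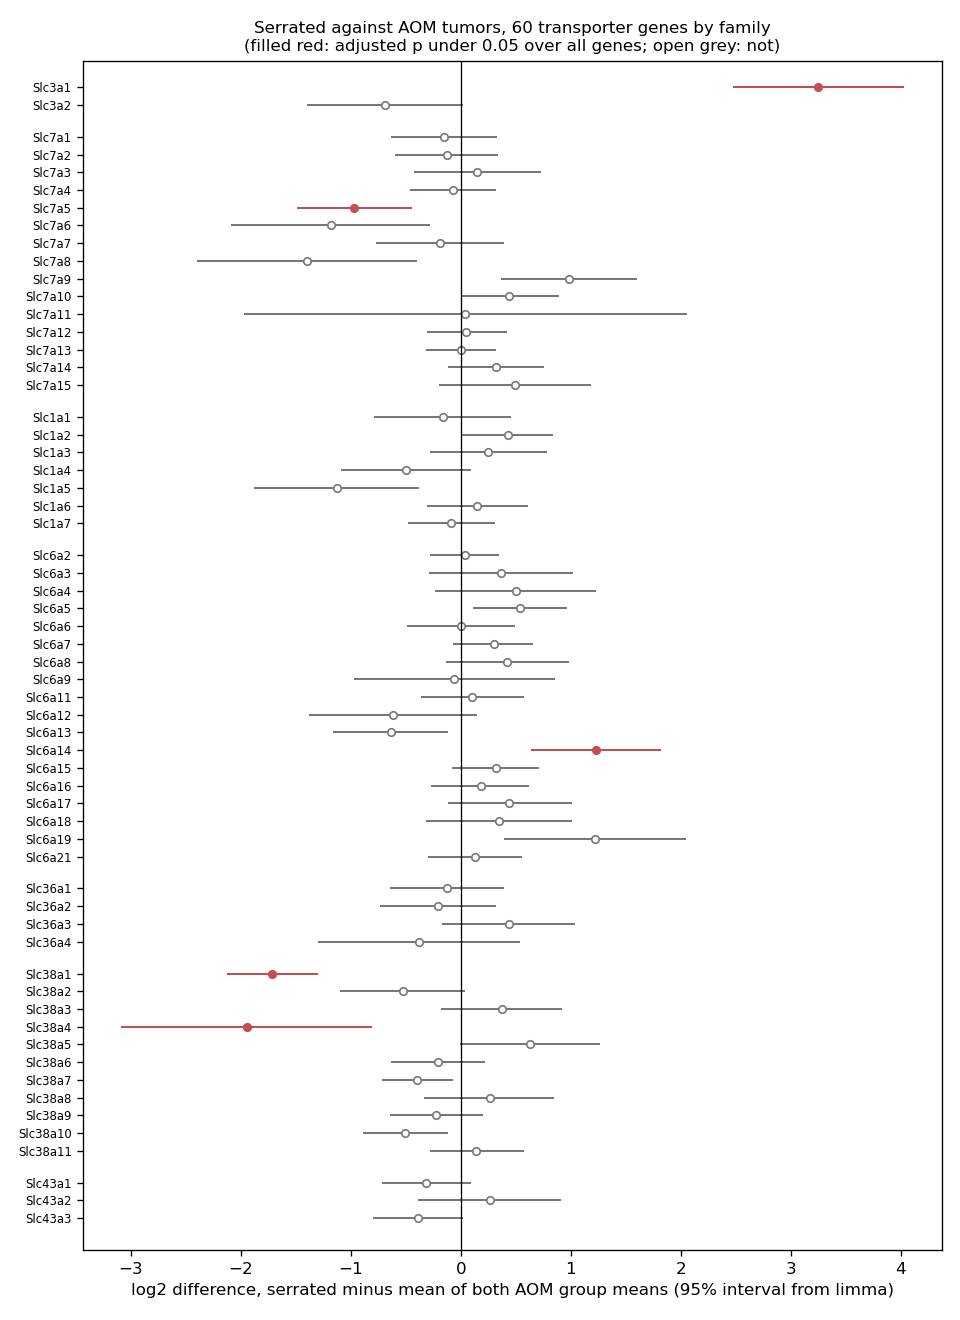
Log2 difference between the serrated group and the mean of both AOM group means for each of the 60 genes (horizontal axis), ordered by family, with 95% intervals from limma. Filled red points passed an adjusted p of 0.05 over all genes (Slc3a1, Slc7a5, Slc6a14, Slc38a1 and Slc38a4), open grey points did not, and most grey intervals cross 0.

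The comparisons with each AOM group alone use the same serrated arrays and so are not independent of the above. Against the K-rasG12D AOM tumors the same 2 genes were called higher (3.33% of members, against 2.46% of all genes) and the same 3 lower (5.0%, against 3.99%). Against the 2 LSL AOM tumors, Slc3a1 alone was called higher (1.67%, against 2.31% of all genes) and Slc38a1 alone lower (1.67%, against 3.4%). For serrated against both AOM groups, a member's 95% interval reached 0.31 to 2.0 log2 units to either side of its difference, with a median of 0.52. The number of arrays limits the precision to this.

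Of the 2 heavy chains, 1 passed. Slc3a1 encodes rBAT, the heavy chain of the exchanger that takes up cystine and dibasic amino acids from the lumen of the kidney tubule and small intestine, and loss of the pair causes cystinuria. Slc3a1 measured 2.78, 3.13 and 3.53 in K-rasG12D AOM, 4.02 and 3.57 in LSL AOM, and 5.82, 7.27 and 7.08 in serrated tumors. Every serrated tumor was well above every AOM tumor, and serrated replicate 1 was the lowest of the 3. The difference from both AOM groups was 3.25 ± 0.34 (log2, SE, n = 3 against 5), with a limma adjusted p of 0.0012. The ratio of signals was 9.54, but the AOM levels of Slc3a1 lay below the array's median gene on all 5 AOM arrays and were not shown to be above background, so this ratio is no measure of the change in transcript. It was 3.58 ± 0.38 against the K-rasG12D AOM tumors (adjusted p = 0.00187) and 2.93 ± 0.42 against the LSL AOM tumors (adjusted p = 0.00731). The last call was lost when either LSL AOM array was left out, with an adjusted p of up to 0.0782, and the first 2 passed under every alternative tried. In bulk tumor RNA, more cells of a type and more RNA per cell cannot be told apart, here and for every gene below.

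Slc7a9, the light chain b0,+AT that pairs with Slc3a1, measured 3.07, 2.7 and 2.96 in K-rasG12D AOM, 2.42 and 2.75 in LSL AOM, and 3.63, 4.39 and 3.14 in serrated tumors. The groups did not overlap, but serrated replicate 3 was only just above the highest AOM tumor. The difference was 0.98 ± 0.27 and missed the threshold (adjusted p = 0.0561). Without serrated replicate 3 it passed (adjusted p = 0.00926), and without any other single array it did not. Slc7a9 lay below the array's median gene on 7 of the 8 arrays.

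Markers of mature absorptive cells moved in the same tumors as Slc3a1. The mean level of the 12 small-intestinal enterocyte genes was 3.17 to 3.54 on the 5 AOM arrays and 6.15, 5.85 and 5.41 on the serrated arrays. Of the 12, 7 were called higher, against 3.62% of all genes. The 10 gastric epithelium genes were at 3.19 to 3.84 on the AOM arrays and at 5.83, 9.04 and 8.98 on the serrated arrays, with 6 called higher. The 3 kidney proximal tubule and brush border genes were at 3.34 to 4.12 on the AOM and 3.25 to 3.75 on the serrated arrays, with 0 of 3 called. The order of the 3 serrated arrays in Slc3a1, lowest in replicate 1, was that of the gastric list and not that of the enterocyte list, which was highest in replicate 1. The part of either cell type in the levels of Slc3a1 and Slc7a9 was not tested.

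**Figure D2:**
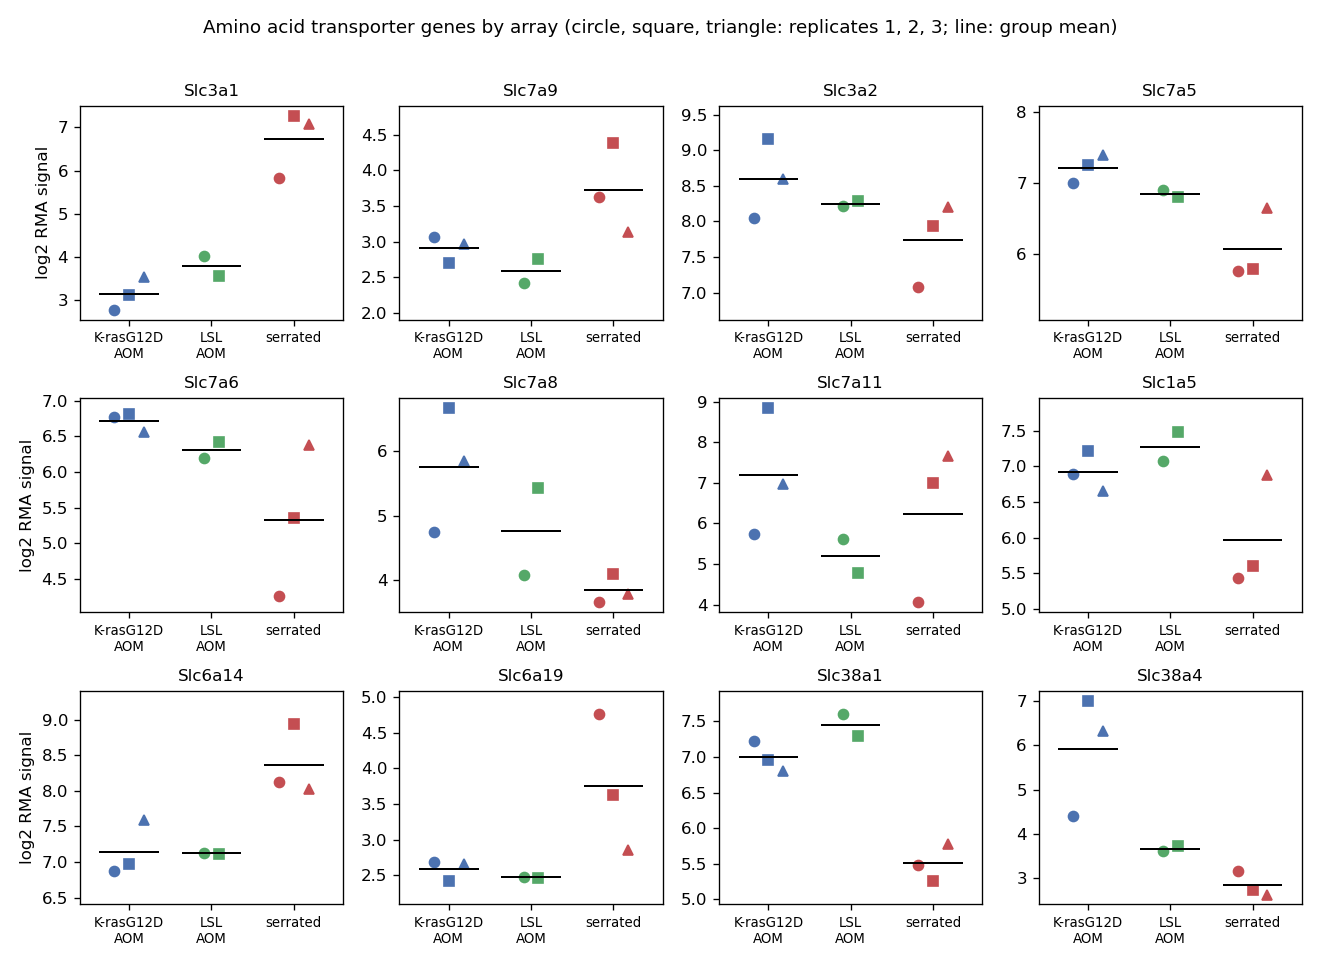
Log2 RMA signal (vertical axes, each panel on its own range) of 12 transporter genes in each tumor by group. Points are arrays, with circle, square and triangle for replicates 1, 2 and 3, and lines are group means. The serrated points lie wholly above the AOM points for Slc3a1, Slc7a9, Slc6a14 and Slc6a19, wholly below for Slc38a1, Slc38a4 and Slc7a5, and overlap in the other panels.

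Slc3a2 encodes 4F2hc (CD98), the heavy chain that partners Slc7a5, Slc7a6, Slc7a7, Slc7a8, Slc7a10 and Slc7a11. It measured 8.05, 9.16 and 8.59 in K-rasG12D AOM, 8.22 and 8.28 in LSL AOM, and 7.08, 7.93 and 8.2 in serrated tumors. Serrated replicates 1 and 2 were below every AOM tumor and replicate 3 was not. The difference of -0.69 ± 0.31 did not pass (adjusted p = 0.208).

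Among its light chains, Slc7a5 passed as lower in serrated tumors. Slc7a5 is LAT1, the exchanger that brings leucine and other large neutral amino acids into growing cells. Slc7a5 measured 7.0, 7.25 and 7.4 in K-rasG12D AOM, 6.9 and 6.81 in LSL AOM, and 5.77, 5.79 and 6.65 in serrated tumors. The groups did not overlap, with serrated replicates 1 and 2 far below the AOM tumors and replicate 3 just below the lowest of them. The difference from both AOM groups was -0.97 ± 0.23 (log2, SE, n = 3 against 5), 1.96-fold, with an adjusted p of 0.0326. It was -1.15 ± 0.25 against the K-rasG12D AOM tumors (adjusted p = 0.0322) and -0.78 ± 0.28 against the LSL AOM tumors, which did not pass (adjusted p = 0.155). When single arrays were left out, the difference from both AOM groups was called only without serrated replicate 3 (adjusted p = 0.00278), and the adjusted p reached 0.145.

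Slc7a6 and Slc7a8, 2 further partners of Slc3a2, were lower in signal and did not pass. Slc7a6 (y+LAT2, which exchanges dibasic for neutral amino acids) measured 6.77, 6.81 and 6.57 in K-rasG12D AOM, 6.2 and 6.42 in LSL AOM, and 4.26, 5.35 and 6.38 in serrated tumors. The serrated tumors spanned more than 2 units, and replicate 3 was inside the AOM range. The difference was -1.18 ± 0.40 (adjusted p = 0.0998). Slc7a8 (LAT2, a neutral amino acid exchanger of the blood-facing side of epithelia) measured 4.74, 6.66 and 5.84 in K-rasG12D AOM, 4.08 and 5.43 in LSL AOM, and 3.66, 4.1 and 3.79 in serrated tumors. Here the spread lay in the AOM tumors, the serrated tumors being close together and 1 LSL AOM tumor being just below the highest of them. The difference was -1.40 ± 0.44 (adjusted p = 0.0808), and it passed without K-rasG12D AOM replicate 1 (adjusted p = 0.0367).

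Slc7a7 (y+LAT1, the basolateral exit route of dibasic amino acids) measured 5.35, 5.53 and 5.29 in K-rasG12D AOM, 5.68 and 4.86 in LSL AOM, and 5.12, 4.71 and 5.6 in serrated tumors. The groups overlapped, with a difference of -0.19 ± 0.25 (adjusted p = 0.67). Slc7a11 (xCT, which takes up cystine for glutathione synthesis in exchange for glutamate) had the widest interval of the 60 genes. It measured 5.75, 8.84 and 6.98 in K-rasG12D AOM, 5.61 and 4.79 in LSL AOM, and 4.06, 7.0 and 7.66 in serrated tumors. The tumors of 1 group were spread over more than 3 units in both groups of 3, and the groups overlapped. The difference of 0.04 had a 95% interval of -1.96 to 2.05 (adjusted p = 0.981), which leaves room for a change of about 2 units either way.

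The other 9 SLC7 genes had differences between -0.15 and 0.49 and none passed (adjusted p from 0.193 to 0.997). They were the cationic amino acid carriers Slc7a1, Slc7a2 and Slc7a3, the related Slc7a4 and Slc7a14, the small neutral amino acid exchanger Slc7a10, and Slc7a12, Slc7a13 and Slc7a15. Slc7a1 ran from 5.61 to 6.35 over the 8 arrays, with both ends in the serrated group. Slc7a15 was at 3.58 in serrated replicate 1 and at 2.06 to 2.52 on the other 7 arrays.

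The SLC38 family held the other transporter whose difference from both AOM groups passed under every alternative. Slc38a1 encodes SNAT1, a sodium-coupled carrier for glutamine and alanine. Slc38a1 measured 7.22, 6.96 and 6.81 in K-rasG12D AOM, 7.6 and 7.3 in LSL AOM, and 5.48, 5.26 and 5.78 in serrated tumors. All 3 serrated tumors were about 1 unit or more below all 5 AOM tumors. The difference was -1.72 ± 0.18 against both AOM groups (adjusted p = 0.00117), a 3.29-fold lower signal. It was -1.49 ± 0.20 against the K-rasG12D AOM tumors (adjusted p = 0.00462) and -1.94 ± 0.22 against the LSL AOM tumors (adjusted p = 0.00306). The second probe set of Slc38a1 measured 7.07, 6.58 and 6.26 in K-rasG12D AOM, 6.48 and 6.39 in LSL AOM, and 5.01, 4.68 and 5.22 in serrated tumors. It did not overlap between groups either, with a difference of -1.57.

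Slc38a4 (SNAT4) carries neutral amino acids with sodium and is expressed from the paternal allele in mice. Slc38a4 measured 4.4, 7.01 and 6.32 in K-rasG12D AOM, 3.62 and 3.72 in LSL AOM, and 3.16, 2.73 and 2.63 in serrated tumors. The serrated tumors were lowest, the LSL AOM tumors only a little above them, and K-rasG12D AOM replicates 2 and 3 far above all others. The difference was -1.95 ± 0.50 against both AOM groups (adjusted p = 0.0432) and -3.07 ± 0.55 against the K-rasG12D AOM tumors (adjusted p = 0.0152). Against the LSL AOM tumors it was -0.83 ± 0.62 and did not pass (adjusted p = 0.501). Of the 8 fits without 1 array, only that without K-rasG12D AOM replicate 1 called the difference from both AOM groups, and the adjusted p ran from 0.00254 to 0.153.

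Slc38a2 (SNAT2), the carrier known to be induced when amino acids are scarce, lies between Slc38a1 and Slc38a4 in the gene order of chromosome 15. It measured 9.18, 8.79 and 9.05 in K-rasG12D AOM, 9.38 and 8.98 in LSL AOM, and 8.02, 8.59 and 9.1 in serrated tumors. Serrated replicate 1 was lowest and replicate 3 was within the AOM range. The difference of -0.53 ± 0.25 did not pass (adjusted p = 0.226), whereas both of its neighbours passed. Slc38a9, a lysosomal protein that reports arginine to the growth kinase complex mTORC1, measured 4.13, 4.51 and 4.0 in K-rasG12D AOM, 4.49 and 4.24 in LSL AOM, and 3.8, 4.25 and 4.14 in serrated tumors. Its groups overlapped (-0.23 ± 0.18, adjusted p = 0.474), and its second probe set had the opposite sign (0.45), so it has no settled direction. The other 7 SLC38 genes had differences between -0.51 and 0.63 with adjusted p from 0.0976 to 0.663. They were the glutamine carriers Slc38a3, Slc38a5, Slc38a7 and Slc38a8, and Slc38a6, Slc38a10 and Slc38a11. Slc38a5 was at 2.84 to 3.35 on the AOM arrays and 4.39, 3.6 and 3.11 on the serrated arrays, with only replicate 3 inside the AOM range. In all, 2 of 11 SLC38 genes were called lower and 0 higher, where 5.76% of all genes were called lower, and the family's median difference was -0.23. Without 1 K-rasG12D AOM or serrated array the family's calls in either direction numbered 1 to 4. The 4 were those without serrated replicate 3 and included Slc38a5 as higher, where 19.4% of all genes were called. The family's median ran from -0.09 without serrated replicate 1 to -0.36 without serrated replicate 3.

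No SLC1 gene passed. Slc1a5 (ASCT2), a sodium-dependent exchanger that is a main route of glutamine into dividing cells, measured 6.9, 7.21 and 6.66 in K-rasG12D AOM, 7.07 and 7.48 in LSL AOM, and 5.43, 5.6 and 6.88 in serrated tumors. As in Slc3a2, serrated replicates 1 and 2 were below every AOM tumor and replicate 3 was not. The difference was -1.13 ± 0.33 (adjusted p = 0.0655), and without serrated replicate 3 it passed (adjusted p = 0.00253). Slc1a4 (ASCT1, an alanine and serine exchanger) measured 5.95, 6.75 and 5.81 in K-rasG12D AOM, 6.37 and 5.71 in LSL AOM, and 5.54, 5.44 and 5.85 in serrated tumors. It overlapped between groups (-0.50 ± 0.26, adjusted p = 0.269). Slc1a1 (EAAC1, the glutamate carrier of epithelia) measured 4.08, 4.52 and 3.81 in K-rasG12D AOM, 4.29 and 4.08 in LSL AOM, and 4.25, 4.41 and 3.33 in serrated tumors. It too overlapped (-0.16 ± 0.27, adjusted p = 0.738). The other 4, all glutamate carriers best known from brain and retina (Slc1a2, Slc1a3, Slc1a6 and Slc1a7), had levels of 2.34 to 3.75 on all arrays and differences of -0.09 to 0.43 (adjusted p from 0.18 to 0.779).

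The SLC6 family held the second gene called higher. Slc6a14 encodes ATB0,+, a carrier driven by sodium and chloride that takes up both neutral and cationic amino acids. Slc6a14 measured 6.87, 6.97 and 7.59 in K-rasG12D AOM, 7.13 and 7.12 in LSL AOM, and 8.13, 8.94 and 8.03 in serrated tumors. All serrated tumors were above all AOM tumors, and K-rasG12D AOM replicate 3 came nearest to them. The difference was 1.23 ± 0.26 against both AOM groups (adjusted p = 0.0207), a 2.35-fold higher signal. It was 1.22 ± 0.28 against the K-rasG12D AOM tumors (adjusted p = 0.0386) and 1.24 ± 0.32 against the LSL AOM tumors (adjusted p = 0.0567). The difference from both AOM groups no longer passed without K-rasG12D AOM replicate 1 or 2, serrated replicate 2 or either LSL AOM array, with an adjusted p of up to 0.0771.

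Slc6a19 (B0AT1), the main carrier of neutral amino acids in the brush border of the small intestine and kidney, measured 2.69, 2.42 and 2.66 in K-rasG12D AOM, 2.48 and 2.46 in LSL AOM, and 4.76, 3.63 and 2.85 in serrated tumors. The serrated tumors were all higher but uneven, from far above to just above the AOM range. The difference of 1.22 ± 0.36 did not pass (adjusted p = 0.0701), and without serrated replicate 3 it did (adjusted p = 0.00633). The order of the serrated tumors was that of the enterocyte list, highest in replicate 1 and lowest in replicate 3. Replicate 1 was also the highest array for most dim genes (below), and the part of either in this gene was not tested. Its neighbour on chromosome 13, Slc6a18 (B0AT3), was at 2.33 to 2.7 on the AOM arrays and 3.59, 2.98 and 2.14 on the serrated arrays and did not pass (adjusted p = 0.494). Cltrn (collectrin), which brings such carriers to the surface in the kidney, was at 1.51 to 1.86 on all 8 arrays.

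The other 16 SLC6 genes had differences between -0.64 and 0.54, with adjusted p from 0.104 to 0.997. The carriers of taurine (Slc6a6), creatine (Slc6a8) and glycine (Slc6a9) overlapped between groups. Slc6a6 had a mean of 7.88 ± 0.31 in K-rasG12D AOM, 7.88 ± 0.21 in LSL AOM and 7.88 ± 0.35 in serrated tumors (SD, n = 3, 2 and 3). The 95% interval of its difference was -0.48 to 0.48. Slc6a8 was at 7.04 to 7.63 on the AOM arrays and 8.42, 7.49 and 7.49 on the serrated arrays. Slc6a9 was at 6.56 to 7.32 on the AOM arrays and 5.69, 7.3 and 7.57 on the serrated arrays. Serrated replicate 1 was the highest of the 8 arrays for the creatine carrier and the lowest for the glycine carrier.

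The remaining SLC6 genes were the monoamine carriers Slc6a2, Slc6a3 and Slc6a4, the glycine and proline carriers Slc6a5 and Slc6a7, the GABA and betaine carriers Slc6a11, Slc6a12 and Slc6a13, the neutral amino acid carriers Slc6a15 and Slc6a17, and Slc6a16 and Slc6a21. Slc6a15 did not overlap between groups, but its levels were only 1.51 to 1.67 on the AOM arrays and 2.28, 1.76 and 1.72 on the serrated arrays (adjusted p = 0.288). Of the 18 SLC6 genes, 9 lay below the median gene on all arrays. Of the 18, 14 (77.8%) had positive differences, with a median of 0.31, against 54.8% and 0.04 over all genes. Without serrated replicate 1 this was 12 of 18 (66.7%) and a median of 0.12, against 50.5% and 0.0 over all genes.

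The SLC36 and SLC43 families held no gene that passed. Slc36a1 (PAT1), which takes up small neutral amino acids with protons at the brush border and exports them from lysosomes, measured 4.87, 5.16 and 5.49 in K-rasG12D AOM, 5.73 and 5.4 in LSL AOM, and 4.8, 5.58 and 5.35 in serrated tumors. The groups overlapped (-0.13 ± 0.23, adjusted p = 0.754). Slc36a2, Slc36a3 and Slc36a4 had differences of -0.38 to 0.44 (adjusted p from 0.339 to 0.6). The genes Slc36a1, Slc36a2 and Slc36a3 lie side by side on chromosome 11, and none of them passed. Slc43a1 (LAT3), a facilitated carrier of large neutral amino acids, measured 3.89, 3.79 and 3.96 in K-rasG12D AOM, 4.08 and 3.65 in LSL AOM, and 3.81, 3.29 and 3.56 in serrated tumors. It overlapped as well (-0.32 ± 0.17, adjusted p = 0.299). Slc43a2 (LAT4) and Slc43a3, a purine base carrier, had differences of 0.26 and -0.39 with adjusted p of 0.597 and 0.212.

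**Figure D3:**
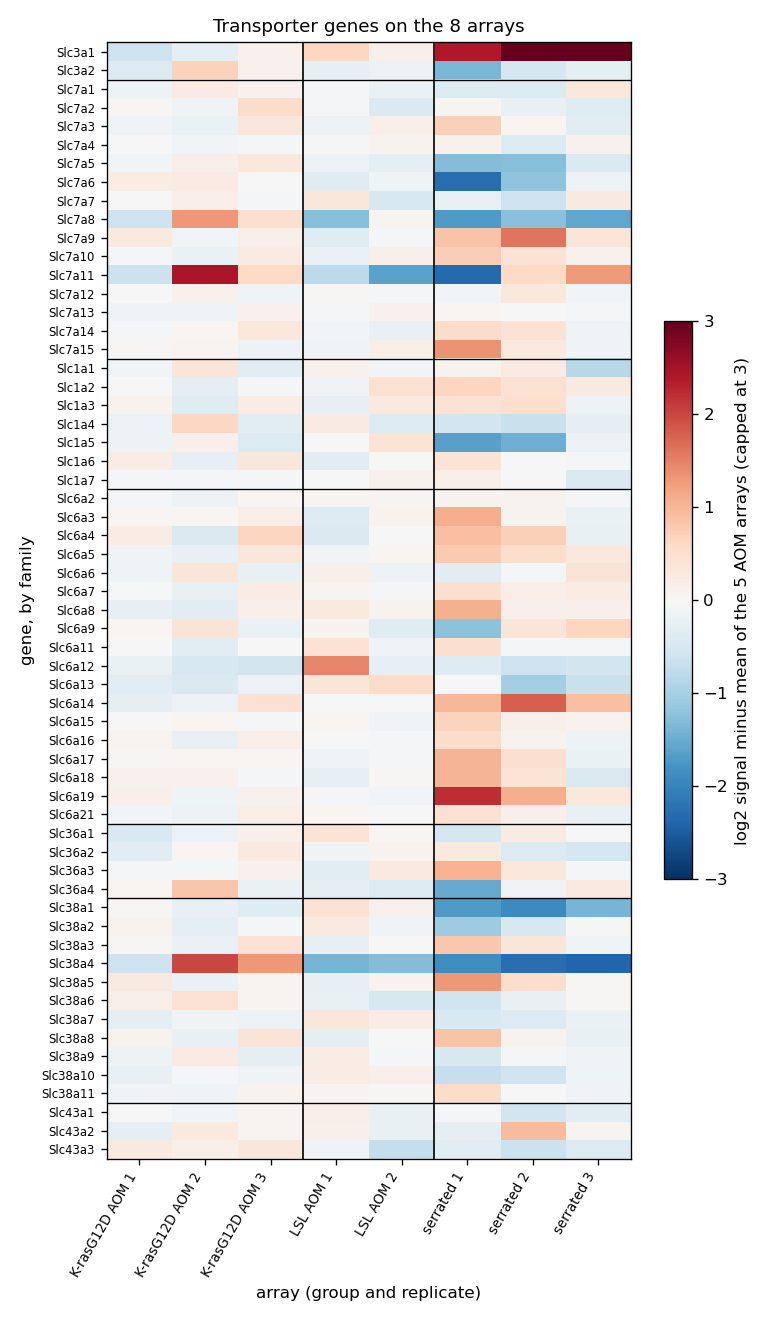
Log2 signal of the 60 genes on each of the 8 arrays, as the difference from the gene's mean over the 5 AOM arrays (red higher, blue lower, colours capped at 3 units either way). Horizontal lines part the families and vertical lines the groups. Slc3a1 is red in all 3 serrated columns and Slc38a1 blue, while many other serrated cells are strong in replicate 1 and faint in replicate 3.

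The 3 serrated arrays did not move the members alike. Of the 60 members, 27 were below the median gene on all 8 arrays, 19 were above it on all 8 and 14 were mixed. Serrated replicate 1 was the highest of the 8 arrays for 19 of the 27 dim members (70.4%), as it was for 53.2% of all genes that were dim in this sense. It was the lowest array for 12 of the 19 bright members (63.2%), as it was for 50.2% of all bright genes. Serrated replicate 3 was the highest of the 3 serrated arrays for 14 of the 19 bright members (73.7%), against 63.4% of all bright genes. Bright carriers in which replicate 3 came closest to the AOM tumors included Slc7a5, Slc7a6, Slc1a5, Slc3a2 and Slc38a2. Among the dim members, 20 of 27 had positive differences between serrated and AOM tumors, with a median of 0.15. Without serrated replicate 1 this was 14 of 27 and a median of 0.0. The bright members went the other way, with 3 of 19 positive and a median of -0.39, and with 6 of 19 and -0.25 without serrated replicate 1. The near-even split of all 60 members is thus made of dim members mostly above 0 and bright members mostly below. The part of this array pattern in the direction of each dim or bright gene was not tested.

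Of the 8 arrays left out in turn, serrated replicate 3 moved the count of calls most. Without it 13 of 60 members passed against both AOM groups, 7 higher and 6 lower, while 3874 of all genes passed instead of 1871. The genes gained were Slc7a9, Slc6a17, Slc6a18, Slc6a19 and Slc38a5 as higher and Slc7a6, Slc1a5, Slc38a2 and Slc38a10 as lower, and Slc38a4 was lost. Markers of dividing cells were lowest on serrated replicate 1 and highest on replicate 3 of the serrated arrays. This order was common among all bright genes. Of these, replicate 1 was the lowest of the 3 for 72.1% and replicate 3 the highest for 63.4%. The mean of the 5 proliferation genes was 7.24 to 7.75 on the AOM arrays and 6.06, 6.24 and 7.17 on the serrated arrays. Of the 5, 4 were called lower, against 5.76% of all genes. Against K-rasG12D AOM tumors alone 0 of the 5 were called, with a median of -0.96. Against LSL AOM tumors alone 4 were called lower, with a median of -1.31, where 3.4% of all genes were called lower. Macrophage and dendritic cell genes were at 5.88 to 6.42 on the AOM arrays and at 4.92, 4.86 and 5.54 on the serrated arrays, with 6 of 10 called lower. Fibroblast genes were at 6.91 to 7.88 on the AOM and 6.45, 6.08 and 7.0 on the serrated arrays, with 3 of 8 called lower. Neutrophil genes had means of 3.74 to 5.71 on AOM and 4.24, 3.95 and 4.23 on serrated arrays, with 0 of 6 called against both AOM groups. Against K-rasG12D AOM tumors alone, where Slc38a4 differed by -3.07, 2 of the 6 neutrophil genes were called lower, with a median of -1.37. In that comparison 6 of 10 macrophage and dendritic genes were called lower too, with a median of -1.15, and 3.99% of all genes were called lower. T and NK cell genes had means of 3.3 to 4.01 on AOM and 3.57 to 4.12 on serrated arrays, with 0 of 7 called higher and 0 lower. B and plasma cell genes had means of 3.57 to 4.77 on AOM and 3.68 to 4.19 on serrated arrays, with 0 of 5 called higher and 0 lower. Mast cell genes had means of 3.28 to 5.92 on AOM and 4.73 to 5.58 on serrated arrays, with 0 of 6 called higher and 0 lower. Smooth muscle genes had means of 4.78 to 5.9 on AOM and 5.17 to 6.21 on serrated arrays, with 0 of 6 called higher and 0 lower. Endothelial genes had means of 4.31 to 5.19 on AOM and 4.5 to 5.58 on serrated arrays, with 0 of 6 called higher and 0 lower. Enteric neuron and glia genes had means of 3.08 to 3.69 on AOM and 3.03 to 3.44 on serrated arrays, with 0 of 6 called higher and 0 lower. The part of these cells, or of the array pattern, in the levels of Slc7a5, Slc1a5, Slc38a4 and the other lower carriers was not tested.

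**Figure D4:**
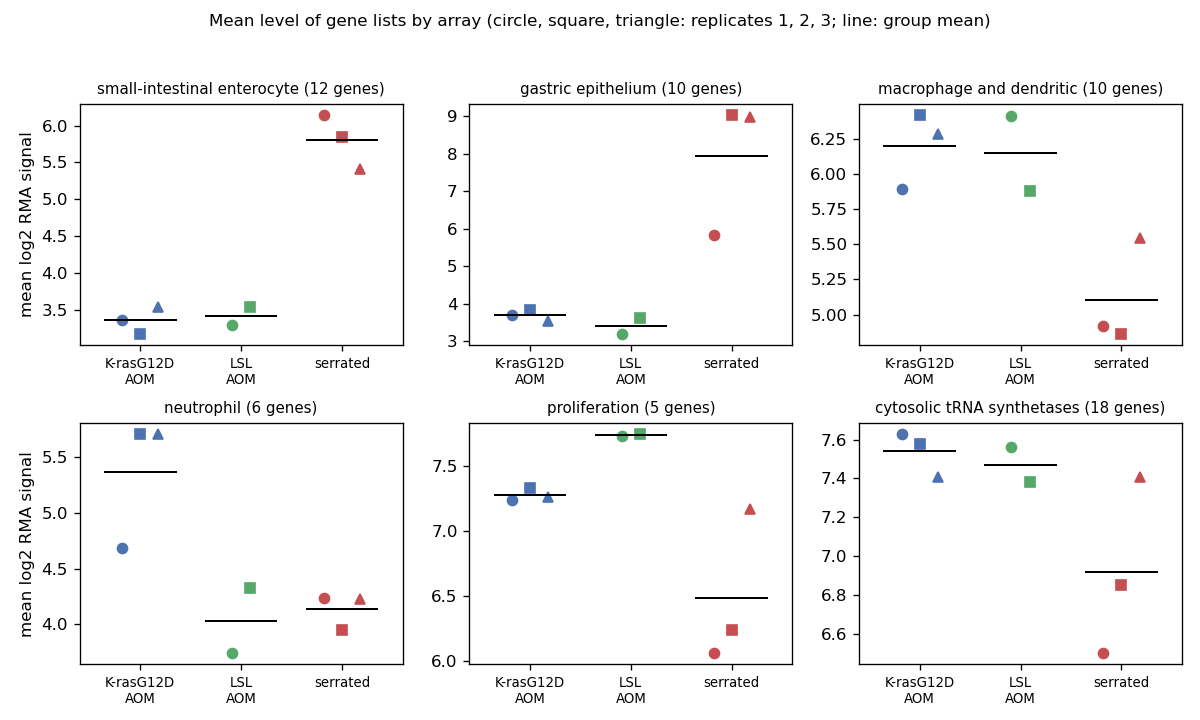
Mean log2 RMA signal (vertical axes, each panel on its own range) of 6 gene lists in each tumor by group, with circle, square and triangle for replicates 1, 2 and 3 and lines for group means. Enterocyte and gastric genes are higher on all serrated arrays, and the macrophage, proliferation and tRNA synthetase lists are lowest on serrated replicates 1 and 2.

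Between K-rasG12D and LSL AOM tumors 0 of the 60 transporters passed in the limma fit, as did 0.0% of all genes. At an unadjusted p under 0.05 there were 6 members and 1666 of all genes (8.36%). The 6 were Slc38a4 (K-rasG12D minus LSL 2.24), Slc43a3 (0.68) and Slc38a6 (0.59), with positive differences, and Slc6a12 (-1.02), Slc6a13 (-0.77) and Slc38a7 (-0.47), with negative ones. Slc38a4 had the smallest adjusted p of the set, 0.346, with a 95% interval of 0.84 to 3.64. It passed when K-rasG12D AOM replicate 1, the lowest of its group, was left out (adjusted p = 0.0431). The neutrophil genes had means of 4.69, 5.71 and 5.71 in K-rasG12D AOM and of 3.74 and 4.33 in LSL AOM tumors. K-rasG12D AOM replicate 1 was the lowest of its group in this list as in Slc38a4. This was not particular to neutrophil genes. Replicate 1 was also lowest in the macrophage and dendritic list (5.89, 6.42 and 6.28) and the fibroblast list (7.12, 7.62 and 7.58). The same held for the T and NK, B and plasma, mast, endothelial, and enteric neuron and glia lists. The part of any of these cells in Slc38a4 was not tested.

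Slc6a12 and Slc6a13, the GABA and betaine carriers that neighbour each other on chromosome 6, were both higher in the LSL AOM tumors in signal, without passing. Slc6a12 rested on LSL AOM replicate 1, which was at 5.78 against 4.08 in replicate 2 and 3.76 to 4.13 in K-rasG12D AOM tumors. Slc6a13 was at 3.85 and 4.04 in LSL AOM and at 3.04 to 3.31 in K-rasG12D AOM tumors, so these 2 groups did not overlap. Slc43a3 was at 6.37, 6.26 and 6.42 in K-rasG12D AOM and at 5.98 and 5.37 in LSL AOM tumors, and likewise did not overlap. A 95% interval in this comparison reached 0.38 to 2.49 to either side, with a median of 0.65.

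Outside the rule, 8 accessory proteins and 23 further carriers were measured. Slc6a20b rose by 0.65 (adjusted p = 0.0344) in serrated tumors. It was at 2.43 to 2.78 on the AOM arrays and 3.31, 3.47 and 3.11 on the serrated arrays, below the array's median gene on every array. Against K-rasG12D AOM or LSL AOM tumors alone it did not pass (adjusted p = 0.0713 and 0.0769). Slc6a20a, a proline carrier, was at 3.14 to 3.55 on the AOM arrays and 4.19, 6.27 and 4.0 on the serrated arrays, without passing (1.53 ± 0.46, adjusted p = 0.072). Slc16a10 (TAT1, an exit route for aromatic amino acids) fell by 1.12 (adjusted p = 0.0294), and Sfxn3, a mitochondrial serine carrier, fell by 0.67 (adjusted p = 0.0461). Sfxn3 overlapped between the serrated and LSL AOM tumors and did not pass against the latter (-0.38, adjusted p = 0.369). Nedd4, a ubiquitin ligase, fell by 0.81 (adjusted p = 0.0241), and 0 of the 7 other accessory proteins passed. Anpep, the brush border peptidase that acts with Slc6a19, was at 4.14 to 5.18 on the AOM arrays and 6.16, 6.46 and 4.72 on the serrated arrays (adjusted p = 0.0831). Slc16a10 and Nedd4 each passed in 4 of the 8 fits without 1 array, and Slc6a20b and Sfxn3 in 2.

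The list of the amino acid response, which ATF4 drives when amino acids are scarce, held 25 genes. It included Atf4 itself and the kinases Eif2ak4 and Eif2ak3 that act upstream of it. Of the 25, 4 fell and 1 rose in serrated tumors, with a median of -0.22, where 5.76% and 3.62% of all genes did so. Phgdh, the first enzyme of serine synthesis, was at 5.34 to 5.97 on the AOM arrays and 4.73, 4.56 and 4.17 on the serrated arrays. It fell by 1.24 (adjusted p = 0.00729) and passed in all 8 fits without 1 array. Shmt2, the mitochondrial enzyme that splits serine to glycine, fell by 1.41 (adjusted p = 0.0116), and passed in 6 of them. Nupr1, a stress-induced nuclear protein, fell by 1.17 (adjusted p = 0.0268), and Ddit4, an inhibitor of mTORC1 signalling, fell by 0.94 (adjusted p = 0.0292), and each passed in 3 of the 8 fits. Vldlr, a lipoprotein receptor, rose by 1.01 (adjusted p = 0.0219) and passed in 5. Its serrated levels (6.88, 6.76 and 6.82) overlapped those of the K-rasG12D AOM tumors (6.33, 6.84 and 5.98). Against these tumors alone Vldlr did not pass (0.44, adjusted p = 0.319). The number of genes of this list called lower ran from 1 to 8 over these fits. Of the 18 cytosolic aminoacyl-tRNA synthetases, Gars, Vars and Kars (glycyl-, valyl- and lysyl-tRNA synthetase) fell and none rose, with a median of -0.66. The mean of the 18 was 7.38 to 7.63 on the AOM arrays and 6.5, 6.85 and 7.41 on the serrated arrays, so replicate 3 was again within the AOM range. Without replicate 3, 19.4% of all genes passed in either direction. Without it 14 of the 18 passed as lower, and in other fits without 1 array as few as 0.

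In glutamine and glutamate metabolism 2 of 15 genes rose and 4 fell, with a median of -0.16. Gpt, the alanine aminotransferase, was at 3.31 to 3.85 on the AOM arrays and 4.88, 6.1 and 5.93 on the serrated arrays. It rose by 1.96 (adjusted p = 0.00383), and its serrated levels were lowest in replicate 1, as in Slc3a1. Gfpt1, which uses glutamine for the hexosamine sugars of glycoproteins, rose by 1.39 (adjusted p = 0.00699). Ppat, which uses glutamine in the first step of purine synthesis, was at 6.98 to 7.42 on the AOM arrays and 5.05, 4.77 and 6.02 on the serrated arrays. It fell by 1.82 (adjusted p = 0.00539), and Got2, the mitochondrial aspartate aminotransferase, fell by 1.15 (adjusted p = 0.0101). These 4 genes passed in all 8 fits without 1 array, while Ctps and Cad, which also fell, passed in 1 of them each.

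The counts of every list against both AOM groups, above and below, stand beside a share of 9.38% called, in either direction, over all genes. Of 32 genes of mTORC1 and amino acid sensing, Akt1s1, an inhibitor within mTORC1, and Bmt2, a link from methionine to mTORC1, fell, each passing in 1 of 8 fits without 1 array. Of 13 genes of branched-chain and tryptophan catabolism, Bckdha and Bckdhb, subunits of the branched-chain keto acid dehydrogenase, fell, each passing in 2 of the 8 fits. Of 11 genes of arginine, ornithine and polyamine metabolism, Oaz2, an inhibitor of polyamine synthesis, fell by 1.06 (adjusted p = 0.00414) and passed in all 8 such fits. Of 9 genes of glutathione synthesis and use, Gpx2, a glutathione peroxidase of the gut epithelium, fell by 1.67 (adjusted p = 0.0194) and Chac2, which degrades glutathione, by 0.87 (adjusted p = 0.0477), passing in 6 and 2 of the 8 fits.

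Of 12 transcription factors known to act on such carriers or in the gut epithelium, 5 rose and 3 fell. Hnf4a, a factor of the absorptive epithelium, measured 7.76, 7.63 and 7.34 in K-rasG12D AOM, 8.66 and 8.1 in LSL AOM, and 8.95, 8.95 and 8.99 in serrated tumors. It rose by 0.99 against both AOM groups (adjusted p = 0.0113), though not past the threshold against the LSL AOM tumors (0.58, adjusted p = 0.169). Cdx2, the intestinal homeobox factor, rose by 2.56 (adjusted p = 0.0013). Myc measured 8.56, 8.23 and 8.06 in K-rasG12D AOM, 7.68 and 7.86 in LSL AOM, and 5.74, 5.92 and 6.7 in serrated tumors. It fell by 1.90 (adjusted p = 0.00244), and Lef1, a TCF/LEF factor of Wnt signalling, fell by 2.18 (adjusted p = 0.000236). Cdx2, Myc and Lef1 passed in all 8 fits without 1 array, and Hnf4a in all but that without serrated replicate 2 (adjusted p = 0.0548). Tcf7l2, Gata4 and Ppara rose as well, and Mycn fell. Tcf7l2 passed in 7 of the 8 fits, Gata4 in 5, Ppara in 1 and Mycn in 2. Without 1 array the list's counts ran from 1 to 6 higher and 2 to 3 lower.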

How the data were processed

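Total RNA of 8 mouse colonic tumors, extracted with a Qiagen RNeasy kit and biotin-labelled per the labels' protocols, was measured on Affymetrix mouse gene arrays. The deposited values are log2 signals that the authors made with GCOS and RMA, per the submitters' processing notes, whose versions and settings are not given in the sources used here. No further scaling was applied. Of 35557 probe sets, 21789 carried exactly 1 gene symbol in the platform annotation. The probe set with the highest mean was taken for each gene, which left 19938 genes, and no filter on dim genes was used.

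A single limma fit (limma 3.58.1 in R 4.3.3, with Python 3.11.15 for tables) of 3 group means gave 4 contrasts with 5 residual degrees of freedom. Adjustment of p-values was over all genes (Benjamini-Hochberg), with 0.05 as the threshold. All adjusted p-values in the text come from limma. "Both AOM groups" is the mean of the 2 group means. Errors are SE beside differences and SD beside levels. The fit shares 1 spread per gene over the groups, so a gene that varied more among serrated arrays has errors that are too small there. Data were simulated for the 19938 genes with independent noise of equal spread on all arrays and with few genes changed. The serrated arrays of the real data were unequal, with gene-by-gene array weights of 0.242, 3.15 and 0.38. The simulated shares therefore need not hold for these data. In the simulation the share of true changes found between serrated and both AOM groups was 56.7% at 2-fold and 98.3% at 4-fold. At 2-fold it was 41.9% for serrated against K-rasG12D AOM, 25.3% for serrated against LSL AOM and 22.7% between the AOM groups, and at 4-fold 97.1%, 94.5% and 95.4%.

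Members and the 10 pathway and 14 marker lists were chosen with earlier results of these data known, so no list is independent evidence. Every gene was named by family. Array values were given for 19 genes: those that passed and 18 fixed by name. Values of the other genes named, beyond 4 a list, were chosen after they were seen. Alternatives were moderated variance with trend and robust options, leaving out the dimmest 40% of genes, renewed quantile normalization, array weights, averaging of probe sets, pairwise fits and leaving out each array. Promoter windows are from RefSeq (GRCm38.p6). Those of Slc38a1 and Slc7a5 were not used here.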

Additional observations from a re-analysis of the deposited data

How the results depend on the processing

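No paired analysis was possible because the labels give the groups no shared replicate numbers. For serrated against both AOM groups, the calls (2 higher, 3 lower) became 17 higher and 18 lower with array weights, and 9 and 11 with gene-by-gene weights, an alternative chosen after seeing the data. The first weighting stopped before converging and put a weight of 25.6 on serrated replicate 2, and under it 51.8% of all genes were called. Against K-rasG12D AOM tumors the weighted counts were 17 and 18, then 7 and 11, and against LSL AOM tumors 11 and 11, then 4 and 7. Quantile normalization gave 5 lower against both AOM groups (12.3% of all genes called in either direction) and 2 lower against LSL AOM (8.9%). Groups compared alone gave 1 higher against K-rasG12D AOM (4.42% of all genes called). Leaving out the dimmest 40% of genes gave 2 higher against LSL AOM (10.6% of the genes kept). Without 1 array the counts were 1 to 7 higher and 1 to 6 lower against both AOM groups, 1 to 5 and 1 to 5 against K-rasG12D AOM, 0 to 5 and 1 to 6 against LSL AOM, and 0 to 1 higher between the AOM groups. Over the fits without 1 K-rasG12D AOM or serrated array, the share of all genes called ran from 3.22% to 19.4% against both AOM groups. It ran from 1.96% to 16.0% against K-rasG12D AOM and from 1.96% to 12.7% against LSL AOM. The transporter counts above also cover the fits without 1 LSL AOM array, which left 1 array in that group. Those fits are not in these shares, so the lowest counts, such as 0 higher against LSL AOM, cannot be set beside them. The cause of these shifts was not tested.

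For the 19 genes with array values, called differences kept their direction in all alternatives, with 138 on the same side of the threshold and 37 not. Of those not called, 51 turned sign, 816 kept both and 71 passed. Sign changes (log2) were as follows, serrated minus both AOM, K-rasG12D AOM or LSL AOM unless stated. With array weights, then gene-by-gene weights, Slc1a1 was 0.24 and 0.14 (both), 0.27 and 0.17 (K-rasG12D), 0.21 and 0.11 (LSL). Slc36a1 was 0.25 and 0.18 (both) and, with the first, 0.01 (LSL). Slc38a9 was 0.06 and 0.02 (K-rasG12D), and Slc7a11 0.23 and 0.08 (K-rasG12D). Slc6a14 was -0.07 and -0.06 (between AOM groups). With quantile normalization, Slc1a1 was 0.01 (K-rasG12D), Slc36a1 0.02 (both), Slc7a11 0 (both, rounded), Slc7a7 0.05 (LSL), and Slc43a1 and Slc6a14 -0.03 (between AOM groups). With probe sets averaged, Slc38a9 was 0.11 (both), 0.06 (K-rasG12D), 0.16 (LSL) and 0.1 (between AOM groups).

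Without 1 array, Slc1a1 ran from -0.37 to 0.17 (both), -0.35 to 0.19 (K-rasG12D), -0.39 to 0.15 (LSL) and -0.24 to 0.12 (between AOM groups). Slc7a7 ran from -0.42 to 0.03 (both), -0.54 to 0.28 (LSL) and -0.3 to 0.53 (between AOM groups). Slc7a11 ran from -0.67 to 1.13 (both) and -1.67 to 0.14 (K-rasG12D), and Slc36a1 from -0.3 to 0.1 (both) and -0.1 to 0.29 (K-rasG12D). Between the AOM groups Slc1a4 ran from -0.2 to 0.47, Slc38a2 from -0.37 to 0.03, Slc43a1 from -0.2 to 0.23 and Slc6a14 from -0.2 to 0.15. Where only 1 LSL AOM array was left, it was assumed to vary like the other groups. Of the 60 genes, 27 lay below the median gene on all arrays, and Slc3a1, Slc38a4, Slc7a9 and Slc6a19 on 5 to 7 of the 8. For these signal over background limits what can be measured.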
